A study of Mus musculus with 8 samples.

Results

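The long noncoding RNAs *Malat1*, *Neat1*, *Miat*, *Meg3*, *Rian*, *Mirg*, *Snhg11* and *Rmst*, were followed through a ribosome pulldown from parvalbumin-expressing (PV+) interneurons of mouse S1 cortex. These 8 transcripts were taken by gene name from the 45706 genes of the deposited tables, and all 8 were among the 17495 genes that passed the filter on low counts. Mice of the genotype PvalbFlp/+;Neurod6Cre/+ received an AAV that depends on Flp for expression and carries the HA-tagged ribosomal protein RPL10A together with the receptor hM3Dq, through which the ligand CNO makes neurons more active. Both groups carried the same genotype and virus, and differed in whether they were given CNO at 1 mg/kg or vehicle (VEH) in 5 injections over about 48 h.

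Each of the 4 CNO and 4 VEH samples pooled tissue of 4 brains from mice at postnatal day 42 to 70, so that a sample stands for a pool and not for one animal. Expression rested on Flp driven by *Pvalb*, and Cre driven by *Neurod6* was used to switch the construct off in pyramidal cells. HA-tagged ribosomes were purified and the polyadenylated RNA bound to them was sequenced. No total RNA of the same tissue was analysed here. For that reason, RNA held by ribosomes and RNA carried along in the pulldown cannot be told apart for any of the 8 transcripts.

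Long noncoding RNAs are transcripts that are processed much like mRNA but are not known mainly for a protein product. *Malat1* gathers in nuclear speckles, domains rich in splicing factors, and *Neat1* is the scaffold of the neighbouring paraspeckles. *Meg3*, *Rian* and *Mirg* are transcribed from the maternal copy of the imprinted *Dlk1*-*Dio3* region, where *Rian* hosts small nucleolar RNAs and *Mirg* hosts a cluster of microRNAs.

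The positions below are those of GENCODE mouse release 21 on GRCm38, the build that the study used. *Malat1* (chr19:5795690-5802672, minus strand) and *Neat1* (chr19:5824708-5845478, minus strand) are neighbours on chromosome 19. *Meg3* (chr12:109541001-109571726), *Rian* (chr12:109603940-109661716) and *Mirg* (chr12:109729764-109749460) follow each other on the plus strand of chromosome 12. *Miat* lies at chr5:112213228-112229395 on the minus strand, *Snhg11* at chr2:158375638-158386145 on the plus strand and *Rmst* at chr10:92071037-92165170 on the minus strand. *Snhg11* is listed there as protein coding and in RefSeq as a long noncoding RNA. The identifier of *Rmst* in the deposited tables is not one of release 21, so its position and transcripts were taken by name.

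Promoter sequence is shown for *Meg3* and *Malat1*, the members whose window held a match to a motif bound by factors that respond to neuronal activity. The windows come from RefSeq on GRCm38.p6, run from 250 bases before the annotated start to 50 after it, and are given in the direction of transcription. The motifs searched on both strands were the cAMP response element CRE (TGACGTCA), its part TGACG, which every CRE holds on each strand, and the AP-1 element (TGANTCA). Capitals mark the matches.
Meg3 promoter, chr12:109540746-109541045, plus strand: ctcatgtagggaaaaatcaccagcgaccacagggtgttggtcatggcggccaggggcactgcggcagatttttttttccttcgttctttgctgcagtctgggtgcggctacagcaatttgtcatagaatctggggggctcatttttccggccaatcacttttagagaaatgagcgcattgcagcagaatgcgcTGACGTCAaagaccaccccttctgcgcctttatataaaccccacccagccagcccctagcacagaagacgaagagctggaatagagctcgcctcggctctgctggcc
Malat1 promoter, chr19:5802623-5802922, minus strand: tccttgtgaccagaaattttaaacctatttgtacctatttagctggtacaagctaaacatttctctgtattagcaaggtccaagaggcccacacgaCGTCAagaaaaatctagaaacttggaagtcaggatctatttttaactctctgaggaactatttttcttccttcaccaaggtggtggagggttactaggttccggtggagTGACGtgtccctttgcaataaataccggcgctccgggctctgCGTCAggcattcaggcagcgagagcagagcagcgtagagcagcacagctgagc

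The *Meg3* window held 1 CRE, and the *Malat1* window held 3 matches to TGACG. Of 32851 RefSeq promoters of the same length, 1.79% held a CRE, 20.8% held TGACG and 7.81% held an AP-1 element. The windows of *Miat*, *Snhg11*, *Rian*, *Mirg* and a second start of *Meg3* held none of the 3 motifs, and *Rmst* and *Neat1* were not analysed here. A match is a description of the letters in the window and not evidence that a factor was bound.

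The microRNAs inside *Rmst* are shown because *Rmst* had the largest fold change of the 8, and a pair of those inside *Mirg* because they share their seed, the bases 2 to 8 with which a microRNA pairs with its targets. All are mature sequences from RefSeq on GRCm38.p6, with the seed in capitals.
mmu-miR-135a-5p, in Rmst: uAUGGCUUuuuauuccuauguga
mmu-miR-135a-2-3p, in Rmst: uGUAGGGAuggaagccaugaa
mmu-miR-1251-5p, in Rmst: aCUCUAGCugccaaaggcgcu
mmu-miR-1251-3p, in Rmst: cGCUUUGCucagccaguguag
mmu-miR-453, in Mirg: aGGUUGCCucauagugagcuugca
mmu-miR-496a-5p, in Mirg: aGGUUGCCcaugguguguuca

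By position, RefSeq placed 14 microRNA hairpins with 26 mature sequences inside *Mirg*, 3 hairpins inside *Rian*, 2 inside *Rmst* and 1 inside *Meg3*. Mature microRNAs were not measured in these libraries, which were made from polyadenylated RNA, and the values of *Rmst* and *Mirg* below are those of the long transcripts.

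Across the series, the counts per sample summed to between 44064161 and 49413273, and 3 counts, used as the lower limit of what can be seen, came to between 0.0607 and 0.0681 CPM (counts relative to the library total). For samples and groups, CPM are further adjusted for library composition by the TMM method. The limits cover counting error only. As a check of the treatment, *Fos*, an immediate early gene, had 49.1 ± 16.4 CPM (SD, n = 4) in CNO and 12.9 ± 2.01 CPM (SD, n = 4) in VEH samples, a log2 fold change of 1.93 with a standard error of 0.22 (edgeR, adjusted p = 0.0520). *Pvalb*, which encodes the protein that defines these cells, was present at 995 ± 140 TPM (SD, n = 4) in CNO and 820.2 ± 349 TPM (SD, n = 4) in VEH samples. TPM are corrected for the length of the transcript and for the library total, so that levels of different genes can be compared on this scale. A marker index was calculated for each sample by subtracting the mean log2 CPM of 12 pyramidal cell markers from the corresponding mean of 12 markers of PV+ interneurons. The index was 1.15, 0.43, 0.96 and 1.56 in CNO replicates 1 to 4 and -0.75, 0.53, 0.99 and 0.86 in VEH replicates 1 to 4, so that VEH replicate 1 stood apart with fewer interneuron and more pyramidal transcripts.

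All 8 long noncoding RNAs were present in every sample, and their TPM spanned more than 3 orders of magnitude. *Malat1* was the third most abundant of all 45706 genes by mean TPM, at 17673 ± 6027 TPM (SD, n = 8). By mean counts its rank was 5, and its rank in TPM depends on the short length assigned to it, given below. *Snhg11*, a host gene of small nucleolar RNAs with strong expression in neurons, followed at 1487 ± 273 TPM, and *Meg3* at 733.4 ± 145 TPM. A middle group was formed by *Neat1* at 54.9 ± 13.7 TPM, *Miat* at 43.8 ± 6.14 TPM and *Rian* at 33.8 ± 5.43 TPM. *Mirg* at 13.6 ± 2.35 TPM and *Rmst*, a transcript known from neuronal differentiation, at 8.78 ± 3.47 TPM were the lowest. The mean within-sample difference between neighbours in this order differed from 0 (two-sided exact sign-flip permutation test within samples, adjusted over 7 comparisons, p = 0.00911 for 6 of them and p = 0.0156 for *Neat1* against *Miat*). *Neat1* exceeded *Miat* in 7 of the 8 samples. The order came from the same means, so that the direction of these differences was set beforehand. The smallest p that the sign flips allow is 0.00781 before adjustment. Together the 8 transcripts took between 0.646% and 1.24% of the counts of a sample, the highest share being that of VEH replicate 1.

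**Figure D1:**
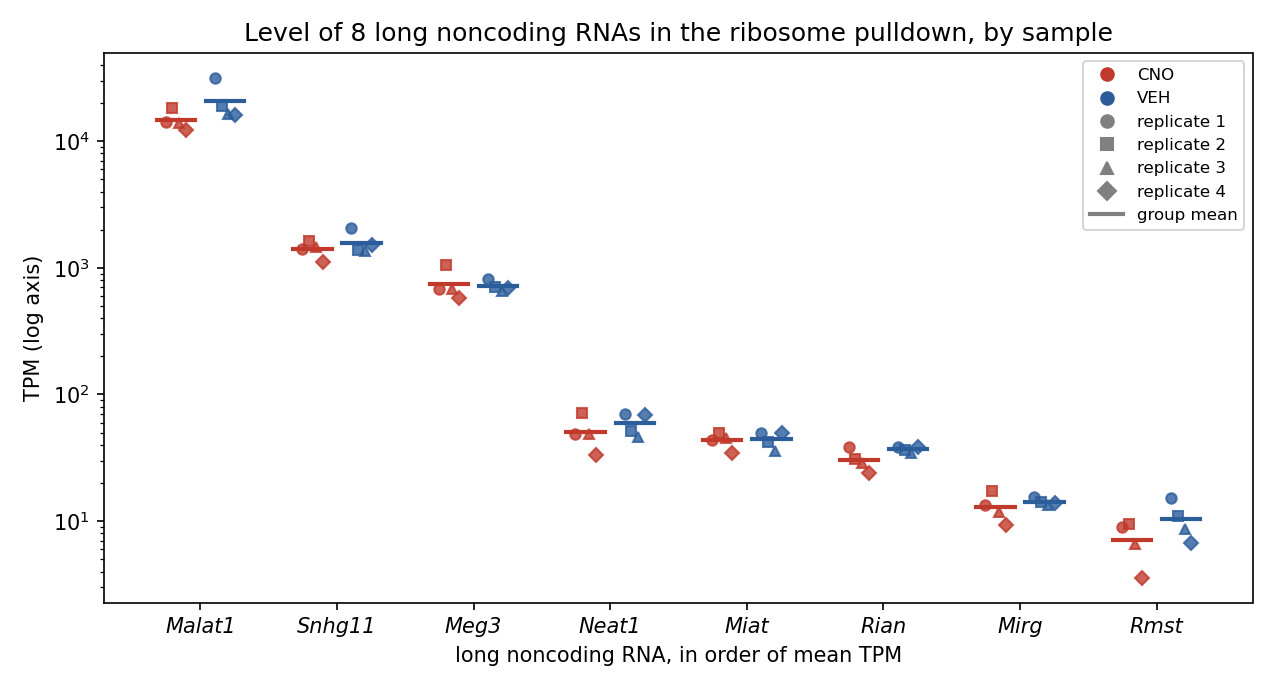
TPM on a log axis for 8 long noncoding RNAs in each of the 4 CNO (red) and 4 VEH (blue) samples, with symbols for the replicate number and a bar for the group mean. The CNO and VEH points overlap for every transcript, and the levels run from 31490 TPM for *Malat1* in VEH replicate 1 to 3.58 TPM for *Rmst* in CNO replicate 4.

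TPM depends on the length that the authors' quantification assigned to each gene. Counts divided by TPM, calibrated in each sample on 1257 genes with a single annotated transcript, gave back the average length that had been used. For *Malat1* it was 740.1 ± 7.15 nucleotides (SD, n = 8), 10.6% of its longest annotated transcript of 6983 nucleotides and close to its 3 short ones of 485, 556 and 656 nucleotides. For *Neat1* it was 3551 ± 51.8 nucleotides, 17.1% of the long form of 20771 nucleotides. *Snhg11* stood at the other end, with 5336 ± 91.4 nucleotides or 91.0% of its longest transcript. In TPM, most molecules assigned to *Malat1* were short forms.

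Dividing CPM by the length of the longest transcript, an alternative chosen after the data had been seen, changed the order. *Snhg11* then had 592.2 ± 86.6 CPM per kb and *Malat1* 556.1 ± 153 CPM per kb (SD, n = 8). Their within-sample difference was not separated from 0 (exact sign-flip permutation test, p = 0.195). *Miat* moved above *Neat1*, at 13.98 ± 1.89 against 3.98 ± 0.80 CPM per kb (p = 0.00781 in the same exact test). *Neat1* was divided here by 20771 nucleotides, although its average length was 3551 nucleotides, near an annotated form of 3004. Its place on this scale thus depends on the length chosen. *Neat1* and *Rian* (p = 0.25) and *Rmst* and *Mirg* (p = 0.383) were not separated by that exact test. On this scale the means spanned a narrower range, down to 1.38 ± 0.21 CPM per kb for *Mirg*, and *Malat1*, *Snhg11* and *Meg3* were again the 3 most abundant of the 8.

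**Figure D2:**
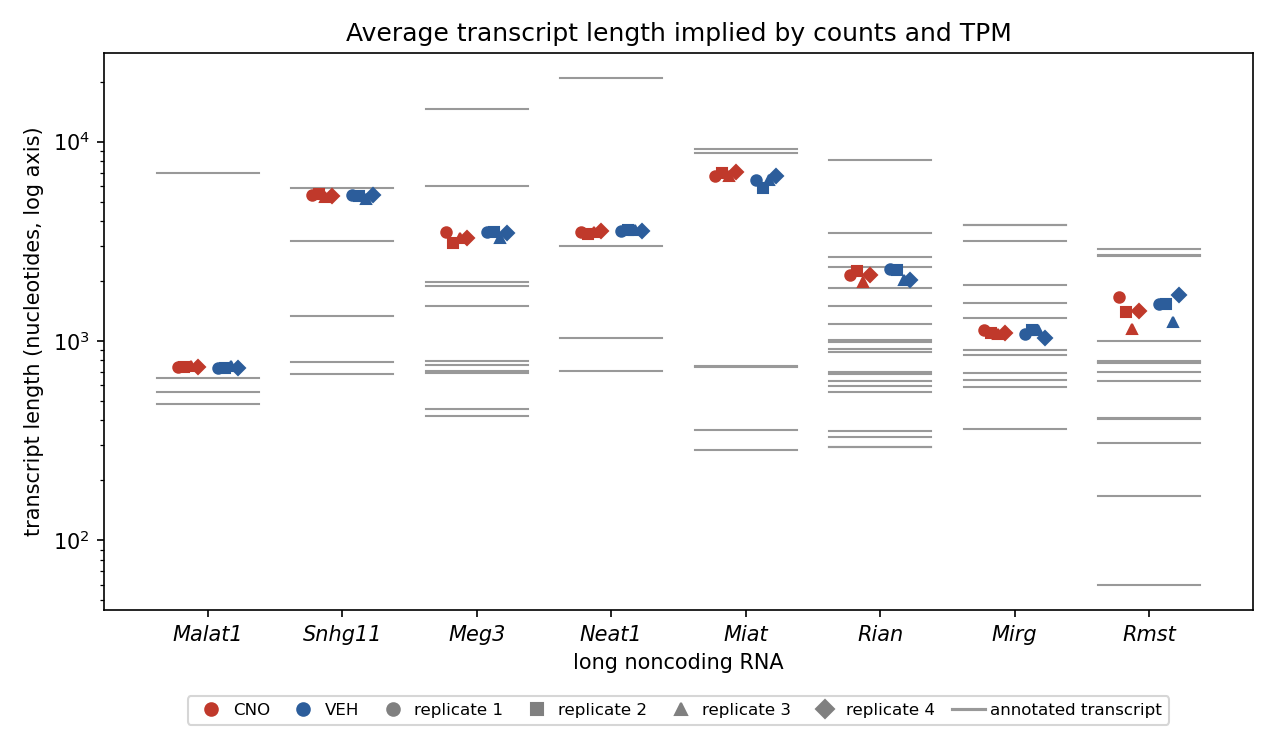
Average transcript length in nucleotides (log axis) implied by counts and TPM for each CNO (red) and VEH (blue) sample, with annotated transcripts as grey lines. *Malat1* lies at 730.4 to 748.7 nucleotides, next to its short annotated forms, and *Snhg11* lies close to its longest.

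The average length of *Miat*, a nuclear transcript that binds splicing factors, was 6711, 6957, 6725 and 7038 nucleotides in CNO replicates 1 to 4. In VEH replicates 1 to 4 it was 6394, 5845, 6399 and 6705 nucleotides. All 4 CNO samples lay above all 4 VEH samples, although CNO replicate 1 and VEH replicate 4 nearly met. Relative to the median gene of each sample the difference between groups was 0.22 (two-sided exact permutation test over 70 assignments, p = 0.0286, the smallest p possible), and adjusted over the 8 members it was p = 0.229 in that exact test. The lengths of the other 7 transcripts overlapped between the groups. The share of all genes whose lengths separate in this way was not computed.

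The comparison of CNO with VEH asks which ribosome-associated transcripts differ after PV+ interneurons had been activated. None of the 8 long noncoding RNAs passed an adjusted p of 0.05 in edgeR's quasi-likelihood test, which called 0 of 17495 genes (0%), and in this fit 0 of the 8 had an unadjusted p under 0.05, against 716 of all genes (4.09%). In 8 of 20 other settings between 1 and 3 members, among *Malat1*, *Rian* and *Rmst*, did have one. DESeq2 called 11 genes (0.0629%) and edgeR's likelihood ratio test with robust dispersion 15 (0.0857%), and 0 members were among them in either. In none of the 8 did the CNO and VEH samples separate without overlap, against 423 of all genes (2.42%). The log2 fold change was below 0 for 6 of the 8, with a median of -0.14, while 49.6% of all genes were below 0 around a median of 0.00. With each sample left out, the median of the 8 lay between -0.21 (without VEH replicate 3) and -0.05 (without CNO replicate 4), and it was -0.09 without VEH replicate 1. In these bulk samples, fewer cells of a type and less RNA per cell cannot be told apart.

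*Malat1* had 3262, 3924, 3311 and 2866 CPM in CNO replicates 1 to 4. In VEH replicates 1 to 4 it had 6296, 4249, 3830 and 3328 CPM. The VEH samples ran higher, 3 of the 4 CNO samples lay under the lowest VEH sample, and VEH replicate 1 was the highest by a wide margin. The log2 fold change was -0.41 with a standard error of 0.20 (edgeR, adjusted p = 0.817), and the two-sided exact permutation test of log2 CPM gave p = 0.143. The 95% interval of the fold change ran from -0.85 to 0.04. Without VEH replicate 1 it was -0.19 with a standard error of 0.14 (edgeR, adjusted p = 1.00).

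Reads of *Malat1* can also be counted on *Gm37376*, a gene annotated on the opposite strand within its exons, because the library kit does not keep the strand. *Gm37376* held on average 32444 counts per sample, between 13.4% and 16.3% of the pair, and its level followed that of *Malat1* over the 8 samples with r = 0.95. With its counts added to *Malat1*, an alternative chosen after seeing the data, the log2 fold change was -0.40 with a standard error of 0.20 (edgeR, adjusted p = 0.817). *Rmst* had such a partner as well, *Gm26700*, with 11.3% to 18.8% of the pair, and its sum gave -0.53 with a standard error of 0.33 (edgeR, adjusted p = 0.817).

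*Neat1* had 76.3, 101.0, 76.6 and 55.0 CPM in CNO replicates 1 to 4 and 99.3, 77.6, 73.7 and 101.7 CPM in VEH replicates 1 to 4. The groups overlapped over most of their range, with one CNO sample under all VEH samples. Its log2 fold change was -0.19 with a standard error of 0.18 (edgeR, adjusted p = 0.817, and exact permutation test, p = 0.457). It was -0.35 without CNO replicate 2 and -0.07 without CNO replicate 4.

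*Miat* had 136.1, 147.6, 140.6 and 115.3 CPM in CNO replicates 1 to 4 and 129.4, 105.9, 104.8 and 145.5 CPM in VEH replicates 1 to 4. Only one CNO sample exceeded all VEH samples. Its log2 fold change in counts was 0.15 with a standard error of 0.13 (edgeR, adjusted p = 0.817, and exact permutation test, p = 0.229). It was 0.25 without VEH replicate 4 and 0.08 without VEH replicate 2. In TPM, where the longer average length in CNO samples enters, the difference of group means was -0.03 on the log2(TPM + 0.1) scale (exact permutation test, p = 0.857). The median of all genes was -0.08 on that scale, so that *Miat* lay above the median gene in both units.

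Within the imprinted region, *Meg3*, whose product is known for growth-suppressing functions, had 1064, 1326, 990.8 and 866.3 CPM in CNO replicates 1 to 4 and 1147, 1049.5, 940.0 and 1001 CPM in VEH replicates 1 to 4. The CNO samples held both the highest and the lowest value, and enclosed the VEH samples. Its log2 fold change was 0.04 with a standard error of 0.15 (edgeR, adjusted p = 0.949, and exact permutation test, p = 0.857), and its 95% interval of -0.28 to 0.36 corresponds to folds between 0.821 and 1.28.

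*Rian* had 34.8, 27.2, 23.6 and 22.4 CPM in CNO replicates 1 to 4 and 33.4, 33.4, 29.0 and 30.4 CPM in VEH replicates 1 to 4. Of the CNO samples, 3 lay under every VEH sample and the other, replicate 1, lay above them all. The log2 fold change was -0.22 with a standard error of 0.14 (edgeR, adjusted p = 0.817, and exact permutation test, p = 0.171). Without CNO replicate 1 it was -0.37 with a standard error of 0.11 (edgeR, adjusted p = 0.931).

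*Mirg* had 5.70, 6.47, 4.67 and 3.87 CPM in CNO replicates 1 to 4 and 5.41, 5.72, 5.57 and 4.74 CPM in VEH replicates 1 to 4. The VEH samples again lay inside the range of the CNO samples. Its log2 fold change was -0.05 with a standard error of 0.17 (edgeR, adjusted p = 0.944, and exact permutation test, p = 0.657). Expressed as a percent of *Meg3* counts, *Rian* was 2.57 ± 0.52 in CNO and 3.05 ± 0.11 in VEH samples (SD, n = 4, exact permutation test, p = 0.143), and *Mirg* was 0.485 ± 0.038 and 0.521 ± 0.059 (p = 0.343 in the same exact test). *Meg3* alone held 94.1% of all counts between its start and the end of *Mirg*, where 91 of the 100 annotated rows had no count in any sample, and microRNAs and small nucleolar RNAs made up 66 and 23 of those 100 rows.

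*Snhg11* had 3432, 3724, 3503 and 2782 CPM in CNO replicates 1 to 4 and 4504, 3205, 3117 and 3512 CPM in VEH replicates 1 to 4. VEH replicate 1 was the highest and CNO replicate 4 the lowest, with the other 6 samples intermingled. Its log2 fold change was -0.09 with a standard error of 0.16 (edgeR, adjusted p = 0.880, and exact permutation test, p = 0.6). Without VEH replicate 1 it was 0.03 (edgeR, adjusted p = 1.00).

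*Rmst* had 6.0, 4.78, 2.81 and 2.04 CPM in CNO replicates 1 to 4 and 8.32, 6.41, 3.99 and 4.36 CPM in VEH replicates 1 to 4. Its samples differed widely within each group, and the 2 lowest were CNO samples and the 2 highest VEH samples. The log2 fold change of -0.56, with a standard error of 0.34, was the largest of the 8 in size (edgeR, adjusted p = 0.817, and exact permutation test, p = 0.229). Its 95% interval ran from -1.31 to 0.18. Without VEH replicate 1 the value was -0.34 (edgeR, adjusted p = 1.00), and without CNO replicate 1 it was -0.84 (edgeR, adjusted p = 0.931). The study ranked the genes that it called differentially expressed on these same samples, and *Rmst* was among those ranked. Its direction here is thus not independent of that choice. Unlike in the study, *Rmst* was not called in any fit run here. The study set cut-offs on fold change and TPM besides the false discovery rate. It called more genes in total than any fit run here, so that the difference is not particular to *Rmst*. Its standard deviation within groups, 0.60 on the log2 CPM scale, was above that of 96.8% of the 15173 tested genes with a mean TPM over 1.

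**Figure D3:**
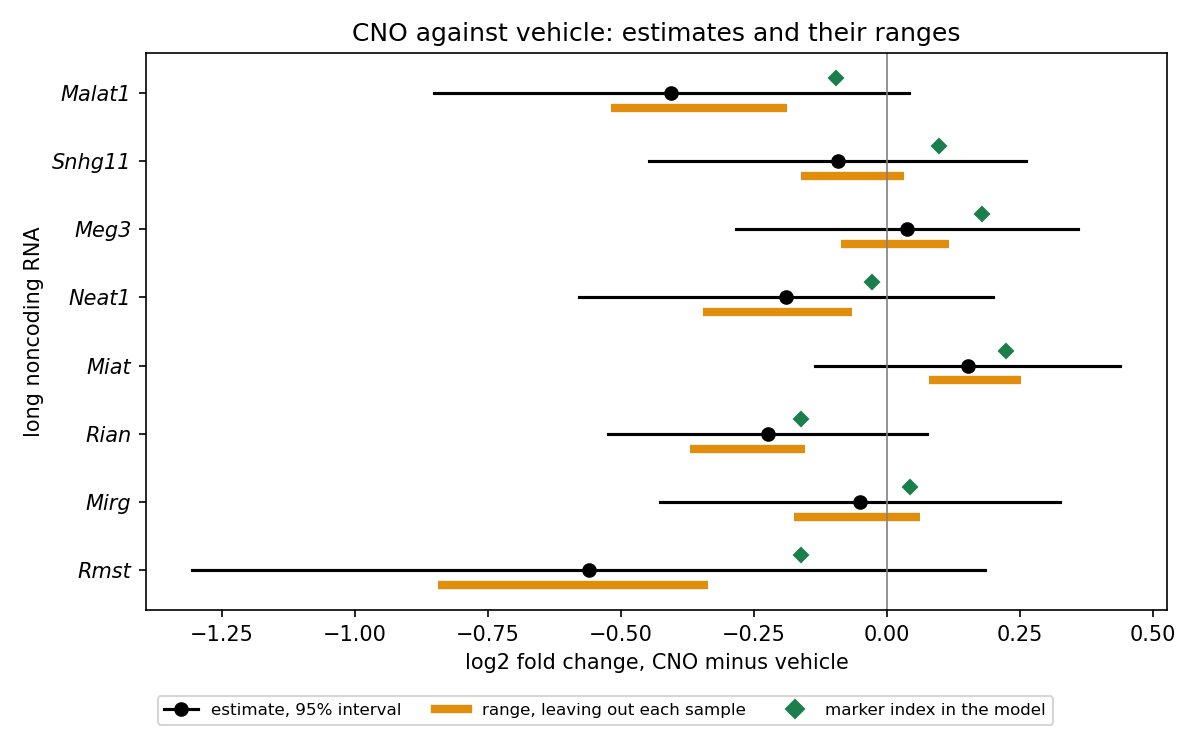
Log2 fold change of CNO minus VEH for each long noncoding RNA, with its 95% interval (black), the range over fits that leave out one sample each (orange) and the value with the marker index in the model (green). All 8 intervals include 0, and with the index *Malat1* moves from -0.41 to -0.10 and *Rmst* from -0.56 to -0.16.

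The levels of the 8 transcripts were next compared with the marker index over the 8 samples, and with each other, in 36 relations adjusted together. All 8 had a negative r with the index. *Malat1* had r = -0.97 (exact permutation test, p = 0.00109, adjusted p = 0.0201) and rho = -0.90 (exact permutation test, p = 0.00456, adjusted p = 0.131). Without CNO replicate 4 and VEH replicate 1, the samples farthest from the median index, r was -0.76. Within the 4 CNO samples r was -0.99 and within the 4 VEH samples -0.96. These are values over 4 points each, with CNO replicate 4 or VEH replicate 1 among them, and were not tested.

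*Snhg11* had r = -0.89 with the index (exact permutation test, p = 0.00672, adjusted p = 0.0807), and rho = -0.81 (exact permutation test, p = 0.0218, adjusted p = 0.131). Its r was -0.27 without the same samples, so that over all 8 samples its size rested on them, and it was -0.91 within CNO and -0.92 within VEH samples. *Rmst* had r = -0.76 (exact permutation test, p = 0.025, adjusted p = 0.12), which was -0.27 without them, -0.56 within CNO and -0.92 within VEH samples. *Miat* was the least related, with r = -0.15. Among all 15173 genes with a mean TPM over 1, 48.0% had a negative r with the index and 0.171% had a lower one than *Malat1*.

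**Figure D4:**
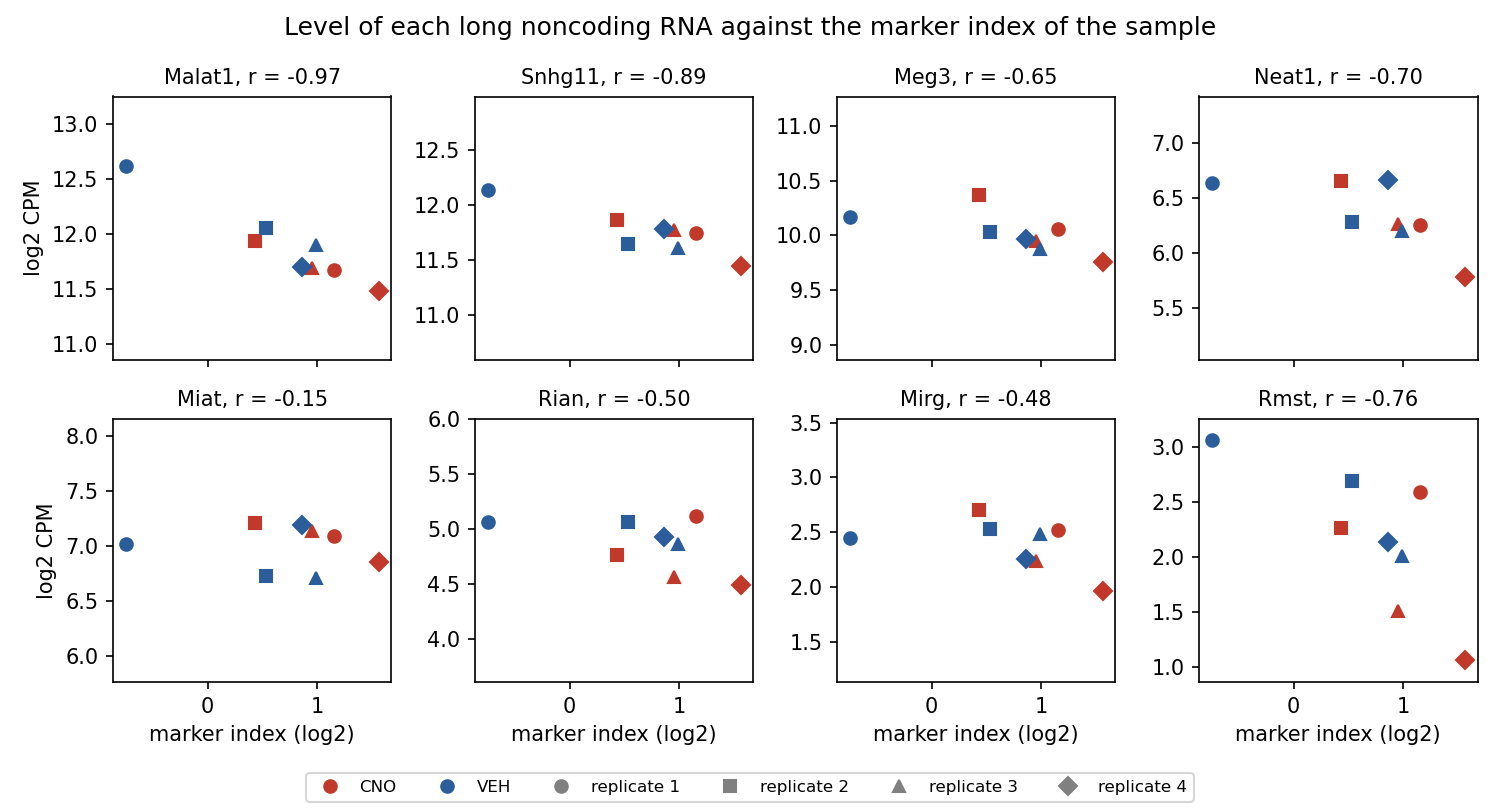
Log2 CPM of each long noncoding RNA against the marker index of the sample (PV+ minus pyramidal markers, log2), CNO in red and VEH in blue, with an equal span on each vertical axis. *Malat1* falls with the index from VEH replicate 1 at -0.75 to CNO replicate 4 at 1.56, whereas *Miat* shows no such order (r = -0.15).

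With the index added to the model, the log2 fold change of *Malat1* was -0.10 with a standard error of 0.077 (edgeR, adjusted p = 1.00) and that of *Rmst* -0.16 with a standard error of 0.30 (edgeR, adjusted p = 1.00). The other values were -0.16 (SE 0.14) for *Rian*, -0.03 (SE 0.15) for *Neat1*, 0.04 (SE 0.17) for *Mirg*, 0.10 (SE 0.078) for *Snhg11*, 0.18 (SE 0.094) for *Meg3* and 0.22 (SE 0.12) for *Miat*. The members thus lay on both sides of 0, around a median of 0.01, with a median of all genes of -0.01 in this fit. The index was built from markers that themselves differed with CNO, so that sample makeup and treatment cannot be fully told apart in it. The summed TPM of the 12 PV+ interneuron markers ran from 2657 to 4125 in CNO and from 1245 to 3284 in VEH samples, and all 12 had a log2 fold change above 0. Those of the 12 pyramidal cell markers ran from 1485 to 2040 and from 1673 to 2366. The 6 microglia markers summed to 61.5 to 90.7 TPM in CNO and 76.7 to 103.8 TPM in VEH samples, the 6 oligodendrocyte markers to 483.6 to 893 and 654.3 to 849.6 TPM, and the 6 astrocyte markers to 454.6 to 530.0 and 468.9 to 585.1 TPM. The 6 markers of other interneurons summed to 595.8 to 690.4 TPM in CNO and 682.8 to 801.4 TPM in VEH samples, and the 6 of blood vessels to 43.1 to 99.0 and 58.7 to 84.9 TPM. None of these markers was at 0 in all samples, and their part in the values of the 8 long noncoding RNAs was not tested.

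Among each other, the 8 transcripts were positively related in 26 of 28 pairs, with a median r of 0.58. These points share libraries, and the index above moved with them. Only *Rmst* and *Rian* passed the adjustment in r (r = 0.93, exact permutation test, p = 0.00112, adjusted p = 0.0201), with rho = 0.86 (exact permutation test, p = 0.0107, adjusted p = 0.131). This relation kept r = 0.91 without CNO replicate 4 and VEH replicate 1, and was 0.93 within CNO and 0.94 within VEH samples. It was 0.71 within replicates 1 and 2 and 0.97 within replicates 3 and 4 of both groups. Both transcripts were lower in replicates 3 and 4, by log2 differences of -0.98 for *Rmst* and -0.30 for *Rian*. The part of this split in their relation was not tested. *Meg3* and *Rian*, neighbours on one strand of the imprinted region, had r = 0.40 (exact permutation test, p = 0.335, adjusted p = 0.39) and rho = 0.57 (exact permutation test, p = 0.151, adjusted p = 0.293).

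**Figure D5:**
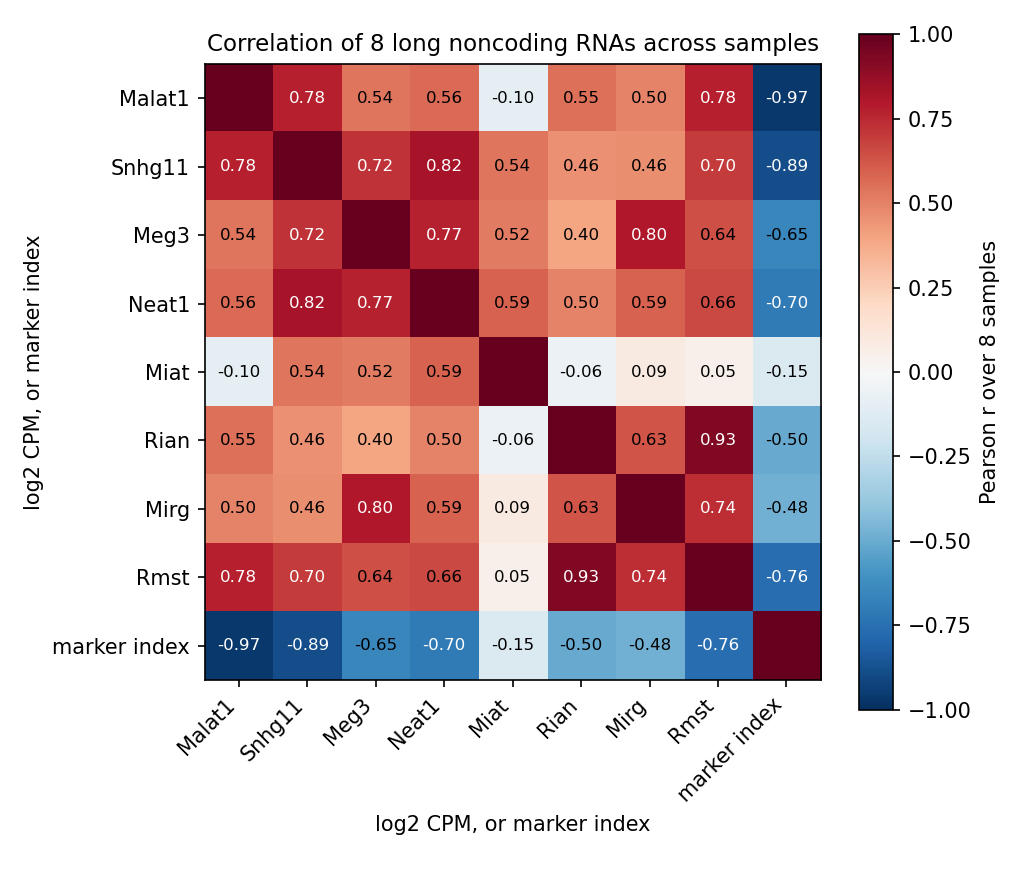
Pearson r over the 8 samples between the log2 CPM of each pair of long noncoding RNAs and with the marker index, from blue (-1) to red (1). Apart from the diagonal, the row of the marker index is negative throughout, and the pair *Rmst* and *Rian* has the highest value of 0.93.

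For each transcript, the genes with the most similar profile over the 8 samples were looked up among 15165 genes with a mean TPM over 1, as a description with no test. *Malat1* was followed most closely by *Irf8* (r = 0.99), which encodes a transcription factor of microglia and other myeloid cells, and by *Sgms1* and *Erlin1* (both r = 0.99). The closest to *Rmst* were *Tnik* and *0610038B21Rik* (both r = 0.99) and *Hfe2* (r = 0.98). *Snhg11* was closest to *Atp11b*, *Colgalt1* and *Ddx26b* (r = 0.99 each), and *Meg3* to *Smg1* (r = 0.98), a kinase of nonsense-mediated decay, *Mical3* (r = 0.97) and *Dvl2* (r = 0.96). *Neat1* was closest to *Stxbp2*, *Srpk3* and *1110037F02Rik* (r = 0.98 each), and *Miat* to *Gtf2i* and *Ucp3* (r = 0.96 each) and *Gtf2ird2* (r = 0.93). For *Rian* they were *Gm37733*, *Bicc1* and *Gda* (r = 0.97 each), and for *Mirg* *Dact2* (r = 0.98), *Shmt2* (r = 0.97) and *Gm17202* (r = 0.96).

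Related genes were described in the same fit, and none was called. Of 14 other tested nuclear long noncoding RNAs, 11 had a log2 fold change below 0 and 3 above, with a median of -0.15, from *Jpx* at -0.35 with a standard error of 0.21 to *Pvt1* at 0.26 with a standard error of 0.16. Of 12 tested small nucleolar RNA hosts and cytoplasmic long noncoding RNAs, 9 were below 0 and the median was -0.06, from *2900097C17Rik* at -0.17 to *Snhg8* at 0.06. The 5 tested genes listed in or beside the *Dlk1*-*Dio3* region had a median of 0.10. Those inside it, *Rtl1*, expressed from the paternal copy, and *Dio3*, were at -0.24 and -0.17. The other 3, beside it, ran from *Begain* at 0.10 to *Wars* at 0.25. Of the 8 tested genes between the start of *Meg3* and the end of *Mirg*, these members included, 7 were below 0 and 1 above. The 17 tested genes for protein partners of the 8 transcripts had a median of 0.02, and lay between *Celf3*, whose product binds *Miat*, at -0.13 and *Sox2*, whose product binds *Rmst*, at 0.21 with a standard error of 0.10 (edgeR, adjusted p = 0.817).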

How the data were processed

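Ribosome-associated RNA was sequenced in 4 CNO and 4 VEH samples. Before deposit, the authors used Trim Galore for trimming, STAR for alignment to GRCm38, and Salmon with tximport for gene abundance. The deposited estimated counts are not normalized, and the deposited TPM are scaled for transcript length and total. Salmon divides reads among overlapping genes and isoforms. Among the members, the counts of overlapping genes were highest relative to *Rmst* (19.7%) and *Malat1* (17.8%). No column of samples was left unused.

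Estimated counts were rounded to whole numbers and genes with fewer than 10 counts in at least 4 samples were left out. CNO was compared with VEH in R 4.3.3 by the quasi-likelihood test of edgeR 4.0.16 with TMM and Benjamini-Hochberg adjustment over 17495 genes; limma 3.58.1 and DESeq2 1.42.0 were alternatives. Standard errors came from the F statistic, and 95% intervals from them and the degrees of freedom of the fit. Log2 CPM used a prior count of 2. Single values were tested by exact permutation over 70 assignments, levels by exact sign flips on log2(TPM + 0.1), and correlations over 40320 orders. On simulated data for CNO against VEH with 17288 genes, the quasi-likelihood test recovered 80.4% of genes changed by 1 and 99.0% of those changed by 2 on the log2 scale. The changes were placed only in genes with a mean above 1 CPM, and no difference in sample makeup was simulated. How far this recovery holds for the measured samples, where the test called 0 genes, was not tested.

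The members and lists were chosen with earlier results of these data known. Genes named are the members, *Fos*, *Pvalb*, the 3 genes closest to each member in Pearson r, and the highest and lowest of each list where none was called. *Dio3* and *Begain* were named besides, to place the values of their list. The opposite-strand partners were named after their values were seen. Replicates are samples that the study calls biological. GENCODE release 21 held 45143 of the 45706 identifiers. Figures were made in Python 3.11.15 with matplotlib 3.10.9.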

Additional observations from a re-analysis of the deposited data

How the results depend on the processing

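No member was called under any of the 20 alternatives run, which changed the test, normalization, filter, unit, covariates or samples. The number of genes called was 11 with DESeq2's Wald test, 15 with the robust dispersion, 4 without the filter on low counts, 3 when replicates 1 and 2 formed one block and 3 and 4 the other, and between 0 and 2 with each sample left out. Directions turned for values near 0. *Meg3* was -0.0113 with library sizes only, where the median of all genes was -0.05, and between -0.0871 and 0.116 with each sample left out, being below 0 without CNO replicate 2 or VEH replicate 3. *Miat* was -0.0288 in limma on log2(TPM + 1) and -0.0295 on log2(TPM + 0.1), where the medians of all genes were -0.06 and -0.08, with -0.0295 also its difference of group means. *Snhg11* was 0.0969 with the marker index in the model and between -0.162 and 0.0318 with each sample left out, the highest without VEH replicate 1. *Mirg* was 0.0437 with the index and between -0.175 and 0.0610 with each sample left out, the highest without CNO replicate 4. Per kb of the longest transcript, the log2 difference was -0.12 for *Malat1* minus *Snhg11*, -1.80 for *Neat1* minus *Miat* and -0.17 for *Mirg* minus *Rmst*. The log2 fold change of *Malat1* lay between -0.52 and -0.10 over all alternatives and that of *Rmst* between -0.84 and -0.16, with adjusted p between 0.473 and 1 for both. The causes were not tested. *Rmst* and *Mirg* had the fewest counts of the 8, so that counting error weighs most on them.

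The labels give both groups replicates 1 to 4 without naming a pairing. Same-numbered samples correlated at 0.03, -0.03, 0.16 and 0.24 in their deviations from the group means, so that the numbers were not taken to pair the samples. Replicates 1 and 2 of one group correlated with 3 and 4 of the other at -0.40 to -0.04. Between the groups within replicates 1 and 2, or within 3 and 4, the values were -0.03 to 0.43. With the replicate number as a block, *Rmst* was -0.62 with a standard error of 0.16, against 0.34 without the block (edgeR, adjusted p = 0.799), 0 genes were called, and 765 genes (4.37%), *Rmst* among them, rather than 716 had an unadjusted p under 0.05. With replicates 1 and 2 against 3 and 4 as the block, a grouping that the labels do not name, *Rmst* was -0.61 with a standard error of 0.17, *Rian* -0.24 with 0.10 and *Malat1* -0.38 with 0.17 (edgeR, adjusted p = 0.678 each). These 3 of the 8 members had an unadjusted p under 0.05 there, as did 1193 genes (6.82%). Without CNO replicate 1, *Rmst* and *Rian* did, with 496 genes (2.81%). A single member did in 5 further settings, namely *Rian* with the robust dispersion (842 genes, 4.81%) and *Malat1* with DESeq2 (835, 4.77%), with library sizes only (865, 4.94%), without CNO replicate 2 (1699, 9.63%) and without VEH replicate 4 (766, 4.33%).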

Other observations

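*Gm26945*, annotated on the strand of *Rian* inside its span (chr12:109640341-109642351, GRCm38), had on average 30.9 counts per sample and a log2 fold change of -0.91 with a standard error of 0.30 (edgeR, adjusted p = 0.817). It was named after its value had been seen. Its annotated exons overlap none of those of *Rian*, and reads of *Rian* from outside the annotated exons cannot be told apart from its own.

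Over all 8 samples, *Rmst* had a mean of 6.37 CPM in replicates 1 and 2 and 3.30 CPM in replicates 3 and 4 of both groups, a log2 difference of -0.98 (replicates 3 and 4 minus 1 and 2). For the other 7 transcripts this difference lay between -0.39 (*Malat1*) and -0.03 (*Miat*), and the median of all genes was 0.02. These values are a description without a test, and the labels name no batch.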
